A study of Mus musculus with 6 samples.

Results

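The mitochondrial ribosomal proteins were taken as the genes whose symbol begins with Mrpl or Mrps followed by a digit, leaving out pseudogene symbols that hold -ps. This gave 77 genes of the 35976 symbols in the count table, 48 with the prefix Mrpl (named for the large subunit) and 29 with the prefix Mrps (named for the small subunit). They were followed in RAW264.7, a mouse line with macrophage properties, by 3′ mRNA sequencing of 3 libraries from cells exposed to itaconate for 24 h and 3 libraries from cells labelled as given no treatment. Itaconate, a small dicarboxylic acid, is produced in the mitochondria of activated macrophages from cis-aconitate. Neither the dose nor the chemical form of the itaconate is labelled, and the labels name no vehicle and no other genetic change in either group, and do not say that the libraries came from separate cultures. The p-values therefore measure the spread between these libraries, which may be technical.

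Mitochondria keep their own ribosome, which translates the few proteins encoded by mitochondrial DNA, all of them parts of the respiratory chain and the ATP synthase. Its ribosomal RNAs come from mitochondrial DNA, but all of its proteins are encoded in the nucleus, made in the cytosol and imported. Many of these proteins descend from those of the bacterial ribosome, and others occur only in mitochondria and cover or extend the shortened ribosomal RNA. Their genes are commonly described as broadly expressed genes with CpG-rich promoters bound by the ETS factor GABP, by NRF1 (nuclear respiratory factor 1) and by YY1.

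The libraries held 5202626 to 6098934 counts, and 10636 genes passed the filter on low counts and were tested with edgeR's quasi-likelihood test (a gene was called at a Benjamini-Hochberg adjusted p under 0.05 over all genes tested). Of the 9 macrophage markers examined, 9 were tested, and their summed level was 7201 to 7447 CPM (counts per common library size, scaled with TMM) in itaconate libraries and 8349 to 9830 CPM in control libraries. The defining marker Csf1r, the M-CSF receptor gene, was detected at 1837 CPM in itaconate and 3693 CPM in control libraries. Of the 9, 1 was higher and 5 lower in itaconate (66.7% called, against 21.9% of all tested genes). The marker called higher was Cd68, at 1346 CPM in itaconate and 1095 CPM in control libraries. The sum averaged 7323 CPM in itaconate and 9216 CPM in control libraries, so its fall was mostly that of Csf1r. The part of these marker shifts in the mitoribosomal values was not tested. Summed marker lists reached at most 2.10 CPM in any library for fibroblasts, 0.942 CPM for T and NK cells, 1.05 CPM for B cells, 1.12 CPM for epithelium and 2.85 CPM for neutrophils with mast cells, and none of those markers passed the filter. In bulk RNA, fewer cells of a type and less RNA per cell cannot be told apart.

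The mitoribosomal protein transcripts were among the genes that differed little between itaconate-exposed and untreated cells. Of the 77 genes, 74 passed the filter, 47 Mrpl and 27 Mrps. Of these, 7 were called (9.46%), 4 higher and 3 lower in itaconate, whereas 21.9% of all tested genes were called, 10.7% higher and 11.2% lower. Among tested genes whose mean level lay between the lowest and the highest tested member (2.88 to 202.9 CPM), 20.9% were called. The members' log2 fold changes were above 0 for 35 genes and below 0 for 39, with a median of -0.01 against -0.01 for all tested genes. The fold changes had an SD over genes of 0.24 among members and 0.69 among all tested genes.

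The median member had a mean of 69.2 CPM and the median tested gene 29.5 CPM, and the median SE of the log2 fold change was 0.14 among members and 0.20 among all tested genes. The 95% interval of the log2 fold change lay wholly between -1 and 1 for 72 of the 74 tested members (97.3%), against 67.0% of all tested genes. It lay wholly between -0.5 and 0.5 for 42 members (56.8%), against 26.9% of all tested genes. The exceptions to the wider limit were Mrpl23, at -0.60 to 1.95, and Mrps28, at -1.06 to 0.46. Mrpl23 was the tested member with the lowest mean, and 97.2% of the 3′ stretches of it that were searched also occur in another annotated gene, so its counts are uncertain. The groups did not overlap for 21 of 74 members (28.4%), against 35.6% of all tested genes.

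**Figure D1:**
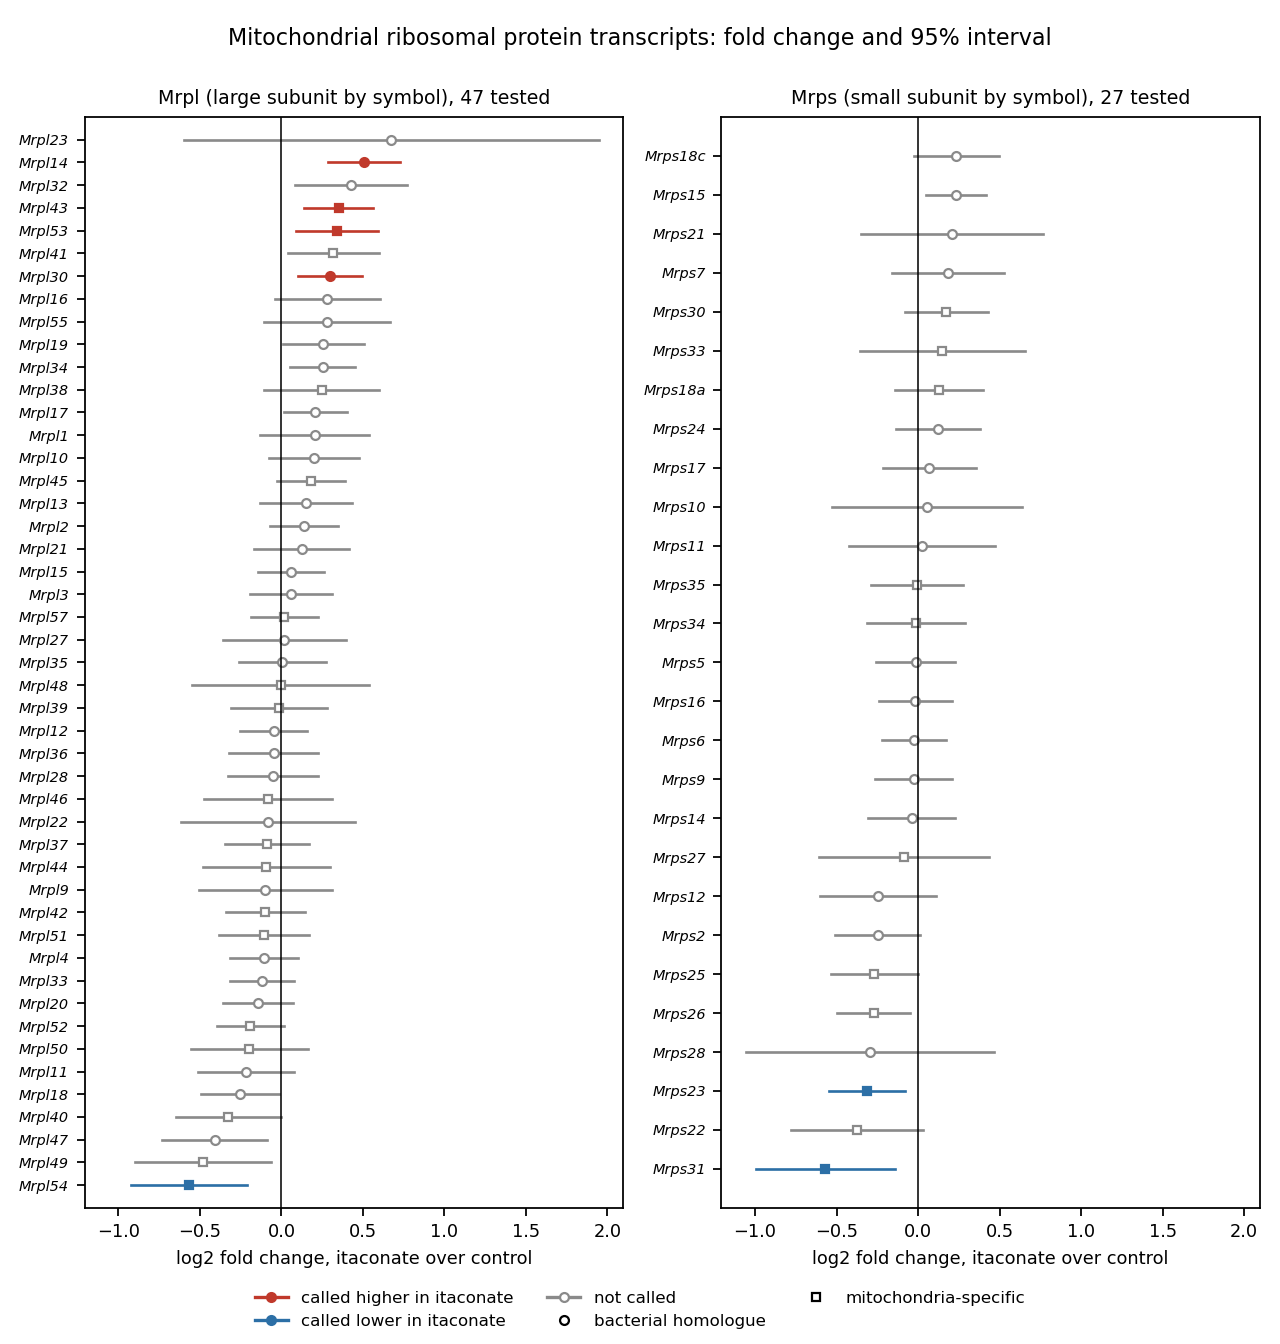
Log2 fold change of itaconate over control for the 47 tested Mrpl genes (left) and the 27 tested Mrps genes (right), with 95% intervals from edgeR. Filled red symbols are the 4 genes called higher, filled blue symbols the 3 called lower, open grey symbols the rest, and circles and squares separate proteins with a bacterial homologue from mitochondria-specific ones. Apart from Mrpl23 and Mrps28, all intervals lie between -1 and 1.

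**Figure D2:**
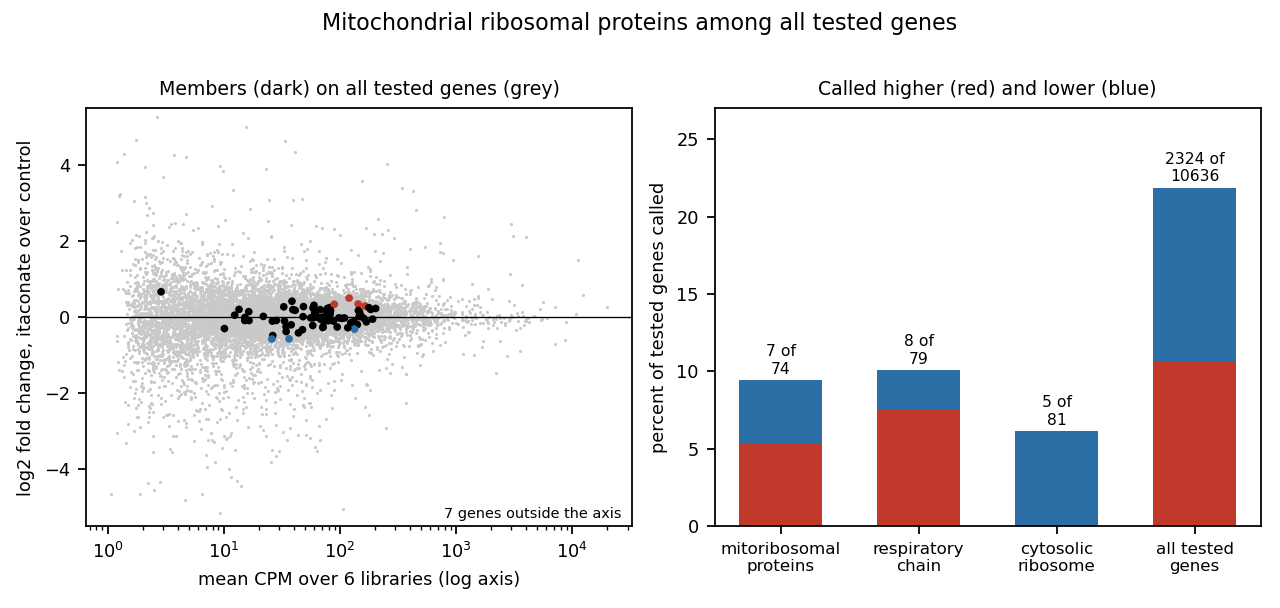
Left, log2 fold change against mean CPM (log axis) for all tested genes in grey, of which 7 lie outside the axis, and for the members in black, with called members in red (higher) or blue (lower). Right, the percent of tested genes called higher (red) and lower (blue) among mitoribosomal proteins (7 of 74), nuclear-encoded respiratory chain genes (8 of 79), cytosolic ribosomal proteins (5 of 81) and all tested genes (2324 of 10636).

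Related gene groups also had a small share of called genes. Of 79 tested nuclear genes of the respiratory chain, 8 were called (10.1%), 6 higher and 2 lower, and of 81 tested cytosolic ribosomal protein genes 5 were called (6.17%), 0 higher and 5 lower.

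The promoters of 68 of the 77 genes were found in RefSeq (GRCm38.p6), as 74 windows of 250 bases before to 50 bases after a transcription start. The windows of 5 genes on which the results turn are given. Mrpl14 had the smallest p and Mrpl43 the next smallest among the called members, Mrpl32 was the uncalled member with the largest positive fold change at 5 CPM or more, and Mrpl51 and Mrpl57 have a start near that of a neighbour that fell. For Mrpl51 that start is the GENCODE start at 125191801. Its RefSeq window begins at 125191950, inside the gene, and does not hold the region between the starts of Mrpl51 and its neighbour. Capitals mark the NRF1 core (GCATGCG or its reverse complement) and the ETS core bound by GABP (CCGGAAG or its reverse complement), and each sequence reads 5′ to 3′ along the gene's own strand.
Mrpl14, chr17:45686099-45686398, plus strand: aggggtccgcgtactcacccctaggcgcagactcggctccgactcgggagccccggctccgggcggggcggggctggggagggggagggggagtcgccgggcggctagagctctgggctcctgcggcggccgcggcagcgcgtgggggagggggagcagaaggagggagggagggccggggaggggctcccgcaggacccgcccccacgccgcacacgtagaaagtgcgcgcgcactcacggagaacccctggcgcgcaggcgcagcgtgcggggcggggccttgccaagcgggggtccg
Mrpl43, chr19:45006393-45006692, minus strand: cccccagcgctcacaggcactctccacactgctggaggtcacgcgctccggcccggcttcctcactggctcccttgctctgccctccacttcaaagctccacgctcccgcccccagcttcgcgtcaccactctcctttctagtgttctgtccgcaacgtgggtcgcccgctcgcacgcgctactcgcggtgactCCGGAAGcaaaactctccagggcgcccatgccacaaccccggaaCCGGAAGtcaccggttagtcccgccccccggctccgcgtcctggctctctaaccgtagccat
Mrpl32, chr13:14612988-14613287, minus strand: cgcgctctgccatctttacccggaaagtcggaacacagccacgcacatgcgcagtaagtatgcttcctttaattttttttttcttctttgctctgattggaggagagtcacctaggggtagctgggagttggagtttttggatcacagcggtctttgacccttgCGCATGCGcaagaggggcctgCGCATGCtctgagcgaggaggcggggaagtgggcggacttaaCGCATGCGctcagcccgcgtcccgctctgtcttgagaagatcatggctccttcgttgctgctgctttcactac
Mrpl51, chr6:125191950-125192249, plus strand: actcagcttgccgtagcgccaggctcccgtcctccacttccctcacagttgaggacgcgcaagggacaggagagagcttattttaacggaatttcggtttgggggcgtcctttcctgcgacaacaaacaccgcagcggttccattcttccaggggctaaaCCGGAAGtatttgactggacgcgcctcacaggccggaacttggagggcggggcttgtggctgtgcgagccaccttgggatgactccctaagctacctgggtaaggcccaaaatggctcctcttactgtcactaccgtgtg
Mrpl57, chr14:57825989-57826288, plus strand: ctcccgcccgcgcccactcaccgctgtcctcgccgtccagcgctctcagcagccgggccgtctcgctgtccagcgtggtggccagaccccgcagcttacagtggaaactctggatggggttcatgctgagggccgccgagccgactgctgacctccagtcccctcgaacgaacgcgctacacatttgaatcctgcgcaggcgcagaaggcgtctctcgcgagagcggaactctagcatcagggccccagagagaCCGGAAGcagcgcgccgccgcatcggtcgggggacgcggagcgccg

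Mrpl14 held neither core, Mrpl43 held the ETS core at 2 places, Mrpl32 held the NRF1 core at 3 places, 2 of them as a palindrome that reads as the core on both strands, and Mrpl51 and Mrpl57 held 1 ETS core each. Across all members' windows, the ETS core occurred in 33.8%, against 18.9% of the windows of all tested genes and 8.86% of all 32851 windows. The NRF1 core occurred in 10.8%, against 6.75% and 3.58%, and was seen in 7 Mrpl genes (Mrpl9, Mrpl10, Mrpl17, Mrpl22, Mrpl32, Mrpl33 and Mrpl39) and in Mrps18b. By gene, that was 8 of 68 members (11.8%), against 7.92% of tested genes. The YY1 core (ATGGCGG) occurred in 17.6%, against 8.65% and 4.05%.

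The antioxidant response element (TGACNNNGC), the site of the oxidative stress factor NRF2, occurred in 17.6% of members' windows, against 14.6% of tested genes' windows. The E-box (CACGTG, which is its own reverse complement) occurred in 9.46%, against 10.3%. All 3 windows of Mrpl2, which overlap each other, held it. Counted by gene, it occurred in 7.35% of members, against 12.3% of tested genes. Every motif was searched on both strands, neighbouring motifs could overlap, and a match is only a run of letters. The windows of members had a median GC content of 58.5%, against 60.7% for tested genes.

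Among large-subunit proteins, 4 genes were called higher. Mrpl14 encodes uL14m, a protein of bacterial descent at the face of the large subunit that meets the small subunit, and lies at chr17:45686322-45698495. It had 136.9, 132.3 and 153.0 CPM in itaconate libraries and 106.5, 86.9 and 104.1 CPM in control libraries. Every itaconate library stood above every control library. The log2 fold change was 0.51 ± 0.11 (SE, edgeR quasi-likelihood adjusted p = 0.000439). Its call was kept in 13 of 13 alternative settings, with an adjusted p between 0.000155 and 0.0127.

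Mrpl43 (chr19:45004829-45006442) encodes a mitochondria-specific large-subunit protein. It had 163.1, 159.4 and 160.5 CPM in itaconate libraries and 146.6, 114.8 and 117.4 CPM in control libraries. The itaconate libraries were close to each other and above all controls, of which replicate 1 was the highest. The log2 fold change was 0.35 ± 0.11 (SE, edgeR adjusted p = 0.0115). Without control replicate 2 the adjusted p was 0.0957 and without control replicate 3 it was 0.0712.

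Mrpl30 (chr1:37890477-37898535) encodes uL30m, which has a bacterial homologue. It had 173.8, 172.5 and 198.3 CPM in itaconate libraries and 151.7, 152.5 and 139.2 CPM in control libraries. The groups did not overlap, and the log2 fold change was 0.30 ± 0.10 (SE, edgeR adjusted p = 0.0231). The adjusted p was 0.106 without control replicate 3, 0.124 without itaconate replicate 3 and 0.0655 when libraries were scaled by their totals.

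Mrpl53 (chr6:83109040-83109939) encodes a further mitochondria-specific large-subunit protein, with 89.1, 101.5 and 109.3 CPM in itaconate libraries and 65.8, 84.6 and 86.2 CPM in control libraries. The groups did not overlap, though the lowest itaconate library stood only just above the highest control library. The log2 fold change was 0.34 ± 0.13 (SE, edgeR adjusted p = 0.0416). Without control replicate 1 it was 0.23 (adjusted p = 0.260). The adjusted p was 0.0517 without control replicate 2, 0.113 without itaconate replicate 2 and 0.163 without itaconate replicate 3, and also 0.0590 by DESeq2 and 0.0969 with scaling by library totals. All of its searched 3′ stretches are shared with the overlapping gene Gm42688 on the same strand, so the counts may belong to either annotation.

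On the lower side, Mrpl54 was the only large-subunit gene called. It encodes a mitochondria-specific protein and lies at chr10:81264713-81266934. It had 26.2, 33.8 and 28.2 CPM in itaconate libraries and 47.7, 38.0 and 45.0 CPM in control libraries. Every itaconate library stood below every control library. The log2 fold change was -0.57 ± 0.18 (SE, edgeR adjusted p = 0.0150). Leaving out control replicate 1 gave an adjusted p of 0.0826, control replicate 3 one of 0.0521 and itaconate replicate 1 one of 0.0750.

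Both small-subunit genes called were lower in itaconate and encode mitochondria-specific proteins. Mrps31 (chr8:22411361-22429665) had 24.7, 16.8 and 20.98 CPM in itaconate libraries and 35.5, 22.9 and 34.5 CPM in control libraries. The groups overlapped, since control replicate 2 stood below itaconate replicate 1. The log2 fold change was -0.57 ± 0.21 (SE, edgeR adjusted p = 0.0462). The adjusted p was 0.208 without control replicate 1, 0.171 without control replicate 3, 0.219 without itaconate replicate 2 and 0.0787 without itaconate replicate 3, and 0.0584 with no filter on low counts.

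Mrps23 (chr11:88204388-88211507) had 139.9, 110.6 and 107.2 CPM in itaconate libraries and 175.3, 136.3 and 132.1 CPM in control libraries. Itaconate replicate 1 stood above control replicates 2 and 3, so these groups also overlapped. The log2 fold change was -0.31 ± 0.12 (SE, edgeR adjusted p = 0.0462). Without control replicate 1 it was -0.17 (adjusted p = 0.399). The adjusted p was 0.0517 without control replicate 2, 0.185 without itaconate replicate 2 and 0.172 without itaconate replicate 3. Without control replicate 1, 0 members were called lower, against 3 with all libraries. DESeq2 called 1 member lower, Mrpl54 (adjusted p of 0.0943 for Mrps23 and 0.0734 for Mrps31), and limma-voom called 2, without Mrps31 (0.0580). Both tools called 4 members higher, DESeq2 with Mrps15 in place of Mrpl53.

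**Figure D3:**
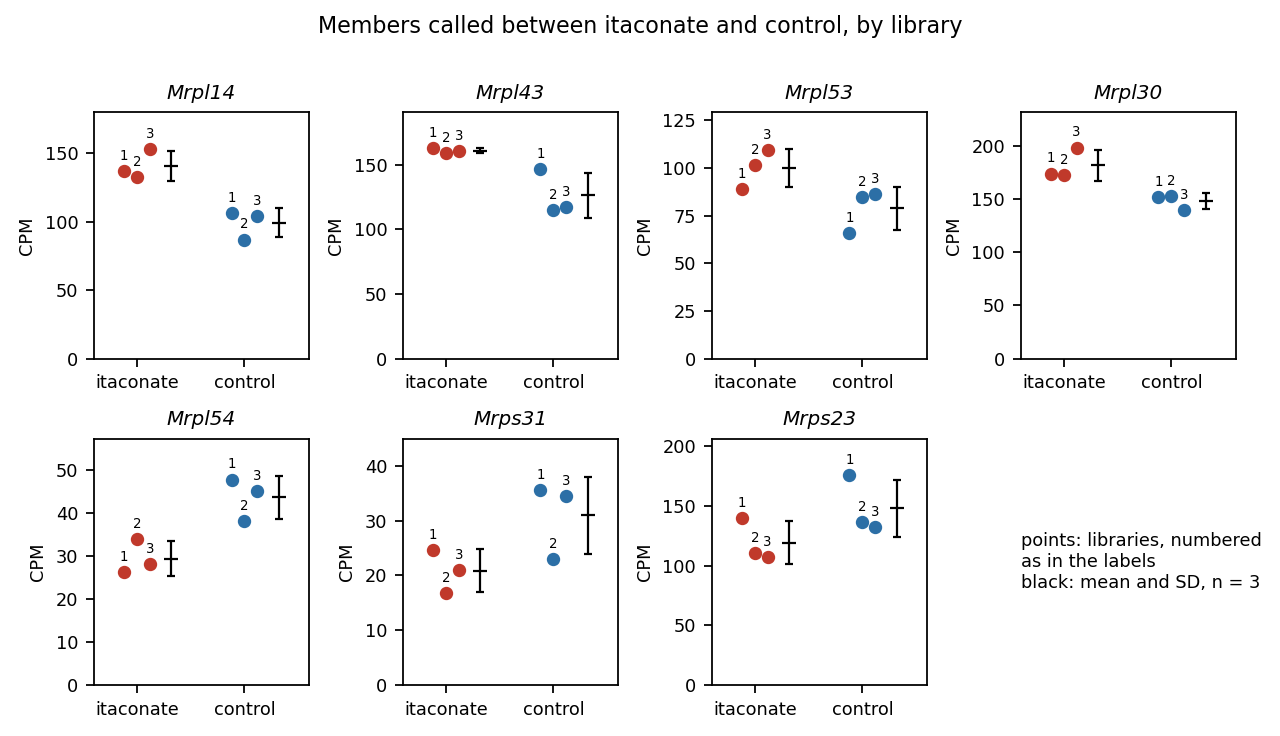
Level in CPM of the 7 called members in each library, itaconate in red and control in blue, numbered by replicate, with the mean and SD of 3 libraries in black. The axes start at 0, and the groups overlap for Mrps31 and Mrps23 but not for the other 5 genes.

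The most abundant members were Mrps15 and Mrps6, followed by Mrps23 and Mrps26, in the small subunit, and Mrpl12, Mrpl17, Mrpl34 and Mrpl33 in the large one. Since tags come from near the 3′ end of a transcript, these levels were not divided by transcript length. Mrps15, a homologue of bacterial S15, which joins the ribosomal RNA of the small subunit early, had 222.2, 215.3 and 220.3 CPM in itaconate libraries and 198.9, 174.6 and 186.2 CPM in control libraries. Its groups did not overlap, and its log2 fold change of 0.23 ± 0.09 had an adjusted p of 0.0638 (edgeR). DESeq2 gave it an adjusted p of 0.0467.

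Mrpl12, whose bacterial homologue forms the stalk that recruits translation factors, had 164.2, 203.7 and 195.8 CPM in itaconate libraries and 221.8, 166.8 and 194.2 CPM in control libraries. These values overlapped widely, with a 95% interval of the log2 fold change of -0.25 to 0.16. Mrps6 averaged 158.9 ± 11.6 CPM in itaconate and 161.6 ± 2.66 CPM in control libraries (SD, n = 3 each), with an interval of -0.22 to 0.17. For both genes the interval lies well inside a change of 0.5 in either direction.

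Of the other abundant members, Mrpl17 and Mrpl34 stood at 197.3 ± 16.6 and 193.3 ± 12.2 CPM in itaconate libraries and at 170.9 ± 12.5 and 162.1 ± 18.4 CPM in control libraries. Mrpl33 stood at 161.8 ± 11.4 CPM in itaconate and 175.9 ± 8.16 CPM in control libraries, and Mrps26 at 105.8 ± 1.28 CPM in itaconate and 127.8 ± 16.7 CPM in control libraries (all SD, n = 3). Of the searched 3′ stretches of Mrpl33, 25.0% occur in another gene. None of the 4 was called (edgeR adjusted p of 0.124, 0.0595, 0.424 and 0.0736). Mrps26 had a log2 fold change of -0.27 with all libraries, -0.17 without control replicate 1 (adjusted p = 0.399) and -0.35 without control replicate 2 (0.0418), and an adjusted p of 0.0287 with scaling by library totals.

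The largest fold changes without a call, at a mean of at least 5 CPM, were those of Mrpl49, Mrpl47, Mrps22 and Mrpl40 on the lower side and Mrpl32 and Mrpl41 on the higher side. Mrpl32, which in mouse and yeast must be cleaved by a protease of the inner membrane before it joins the large subunit, had 41.4, 50.5 and 40.9 CPM in itaconate libraries and 33.3, 30.1 and 35.6 CPM in control libraries. Its groups did not overlap, with a log2 fold change of 0.42 ± 0.17 and an edgeR adjusted p of 0.0687. Mrpl41 also had separate groups, at 66.3 ± 2.21 CPM in itaconate and 53.2 ± 0.890 CPM in control libraries (SD, n = 3; edgeR adjusted p = 0.0986).

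On the lower side, Mrpl47, the homologue of bacterial L29, had 37.7, 36.6 and 39.0 CPM in itaconate libraries and 52.6, 52.8 and 45.0 CPM in control libraries. Its groups did not overlap, and its adjusted p was 0.0595 with all libraries, 0.0497 without control replicate 3, between 0.0832 and 0.175 without any other single library, and 0.0304 with scaling by library totals. Mrpl49, Mrps22 and Mrpl40 had log2 fold changes of -0.48 ± 0.21, -0.37 ± 0.20 and -0.33 ± 0.16 (SE, edgeR adjusted p of 0.0918, 0.193 and 0.153), and the groups of all 3 overlapped. With 1 library left out, Mrpl49 ranged between -0.37 without control replicate 3 (adjusted p = 0.304) and -0.65 without itaconate replicate 2 (0.0492). Mrps22 ranged between -0.20 without itaconate replicate 3 (adjusted p = 0.581) and -0.66 without itaconate replicate 1 (0.0248). The 3′ end of Mrpl49 overlaps an exon of Syvn1 on the opposite strand by up to 91 bases, and the strand setting of the counting is not known. The 3′ ends of Mrpl10, Mrpl12, Mrpl19, Mrps7, Mrps25, Mrps27 and Mrps34 likewise overlap a gene on the opposite strand, so reads of those pairs may not be told apart.

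The 3 genes that failed the filter were Mrpl24, Mrps18b and Mrps36. Mrpl24 had 3, 4 and 0 counts in itaconate libraries and 3, 14 and 3 counts in control libraries. Mrps18b had 3, 0 and 0 counts in itaconate libraries and 0, 0 and 7 counts in control libraries. Mrps36, which despite its name is known as a subunit of the 2-oxoglutarate dehydrogenase complex, had 12, 5 and 2 counts in itaconate libraries and 2, 8 and 1 counts in control libraries. Against a floor of 3 counts (0.492 to 0.577 CPM), these levels are too low for a comparison at this depth. The 3′ ends of Mrpl24 and Mrps18b overlap a gene on the opposite strand.

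Compared by subunit, the Mrpl genes had 4 calls higher and 1 lower among 47 (10.6%, against 21.9% of all tested genes), with a median log2 fold change of 0.01. The Mrps genes had 0 higher and 2 lower among 27 (7.41%), with a median of -0.02. Of the 27 Mrps genes, DESeq2 called only Mrps15, which was higher, and neither of the 2 lower ones, while limma-voom called only Mrps23, as lower. The summed level of Mrpl transcripts was 3891, 3832 and 4138 CPM in itaconate libraries and 3960, 3705 and 3721 CPM in control libraries. That of Mrps transcripts was 1841, 1842 and 1945 CPM in itaconate libraries and 2012, 1846 and 1861 CPM in control libraries. Both sums overlapped between the groups.

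The ratio of summed Mrpl to summed Mrps level was 2.114, 2.080 and 2.128 in itaconate libraries and 1.968, 2.007 and 1.999 in control libraries. All itaconate ratios were higher than all control ratios, although the group means were close, at 2.11 ± 0.024 in itaconate and 1.99 ± 0.021 in control libraries (SD, n = 3 each). The ratio was not tested, and the groups also did not overlap for 35.6% of all tested genes. Its Mrps sum includes the mitochondria-specific small-subunit genes described below, so their lower sum is not a separate result. The small-subunit genes with a bacterial homologue summed to 1163 to 1253 CPM in itaconate and 1159 to 1198 CPM in control libraries, which overlapped. Structures of the mammalian mitoribosome place the products of Mrps30 and Mrps18a in the large subunit and leave Mrps36 out of the core ribosome. With the subunits assigned that way, the median log2 fold changes were 0.02 over 49 large-subunit genes and -0.02 over 25 small-subunit genes.

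By descent, the 45 tested genes with a bacterial homologue had 2 calls higher and 0 lower (4.44%, against 21.9% of all tested genes) and a median log2 fold change of 0.06. The 29 tested mitochondria-specific genes had 2 higher and 3 lower (17.2%) and a median of -0.08, with 9 values above 0 and 20 below. Within the small subunit, the 9 tested mitochondria-specific genes had a median of -0.27, and 8 of the 9 were below 0 (Mrps33 was the exception at 0.15), but only Mrps23 and Mrps31 were called (22.2%, close to the 21.9% of all tested genes). Their summed level, with Mrps18b, was 520.9, 475.0 and 497.0 CPM in itaconate libraries and 656.4, 545.6 and 540.4 CPM in control libraries. These sums did not overlap, and control replicate 1 was the highest by a wide margin. The class covers Mrps symbols only and leaves out the small-subunit proteins Dap3, Chchd1, Aurkaip1 and Ptcd3. Their log2 fold changes were 0.07, 0.10, 0.03 and -0.12, and none of them was called. The 16 tested small-subunit genes with a bacterial homologue had a median of 0.00, with 0 calls by edgeR (1 at an unadjusted p under 0.05), 1 by DESeq2 and 0 by limma-voom. The difference between these classes was not tested.

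Genes whose starts lie head to head with another gene were frequent among the members. Of the 74 tested members, 32 (43.2%) had an opposite-strand protein-coding neighbour with a start within 1000 bases in GENCODE M21, against 18.5% of 9627 tested protein-coding genes. This count includes pairs whose 5′ ends overlap, not only pairs whose starts diverge. In 25 pairs of a member and a non-member both were tested, and 6 of the 25 neighbours were called (24.0%, close to the 21.9% of all tested genes), 2 higher and 4 lower. Only for Mrpl14 and Tmem63b were both genes of a pair called. Tmem63b, which encodes a membrane cation channel, had 49.5, 50.6 and 53.5 CPM in itaconate libraries and 21.9, 24.7 and 36.8 CPM in control libraries. It was higher in every itaconate library, with a log2 fold change of 0.89 ± 0.18 (SE, edgeR adjusted p = 0.000145). Exons of Tmem63b and Mrpl14 overlap by up to 106 bases on opposite strands, away from the annotated 3′ ends where tags fall.

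The other called neighbours were chosen after their values were seen. Ncapd2, a condensin subunit gene whose start lies 100 bases from that of Mrpl51, had 13.8, 21.9 and 19.4 CPM in itaconate libraries and 90.7, 94.1 and 99.6 CPM in control libraries. It fell by 2.37 on the log2 scale (SE 0.16, adjusted p = 6.23e-17 by edgeR). Across the same start region Mrpl51 had 68.5, 59.4 and 81.8 CPM in itaconate libraries and 69.8, 88.2 and 67.7 CPM in control libraries. The values of Mrpl51 overlapped, with a 95% interval of its log2 fold change of -0.38 to 0.17, and the interval of Ncapd2, -2.69 to -2.04, lay wholly below it.

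Ska3, a kinetochore gene whose start lies 49 bases from that of Mrpl57, averaged 1.81 ± 1.10 CPM in itaconate and 7.49 ± 1.01 CPM in control libraries (SD, n = 3; log2 fold change -2.03 ± 0.55, edgeR adjusted p = 0.00449). Mrpl57 had 134.1, 157.9 and 150.0 CPM in itaconate libraries and 157.4, 145.2 and 133.6 CPM in control libraries. The values of Mrpl57 overlapped, and its interval of -0.19 to 0.23 lay wholly above that of Ska3, -3.13 to -0.93.

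The mitochondrial seryl-tRNA synthetase gene Sars2 fell by 1.66 on the log2 scale (SE 0.55, adjusted p = 0.0220) beside Mrps12, which was not called at -0.25 (adjusted p = 0.357). The call of Sars2 was lost without control replicate 1 (adjusted p = 0.0520), control replicate 2 (0.121) or itaconate replicate 3 (0.0721). Cyb5rl, which encodes a protein like cytochrome b5 reductase, fell by 1.05 on the log2 scale (SE 0.25, adjusted p = 0.00111) beside Mrpl37 at -0.09 (adjusted p = 0.684). Rab6a, a Golgi GTPase gene, rose by 0.51 ± 0.12 (adjusted p = 0.000908) beside Mrpl48, which was at 15.2 CPM in both groups (adjusted p = 0.994) and shares 27.4% of its searched 3′ stretches with another gene.

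The neighbours of the called members Mrpl30, Mrpl43 and Mrpl54 were not called, and Mrpl53, Mrps23 and Mrps31 had no such neighbour. Mitd1 beside Mrpl30 had a log2 fold change of -0.22 (adjusted p = 0.514), Peo1, the gene of the mitochondrial DNA helicase Twinkle, beside Mrpl43 had -0.42 (0.362), and Apba3 beside Mrpl54 had 0.28 (0.756). Exons of Peo1 and Mrpl43 overlap by up to 358 bases on opposite strands, away from the annotated 3′ ends. Other neighbours, chosen for what they encode after their values were seen, belong to respiratory complex I or the cytosolic ribosome. They were Ndufs6 beside Mrpl36 (0.03, adjusted p = 0.888), Ndufb5 beside Mrpl47 (-0.06, 0.740) and Fau beside Mrpl49 (-0.20, 0.0629).

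**Figure D4:**
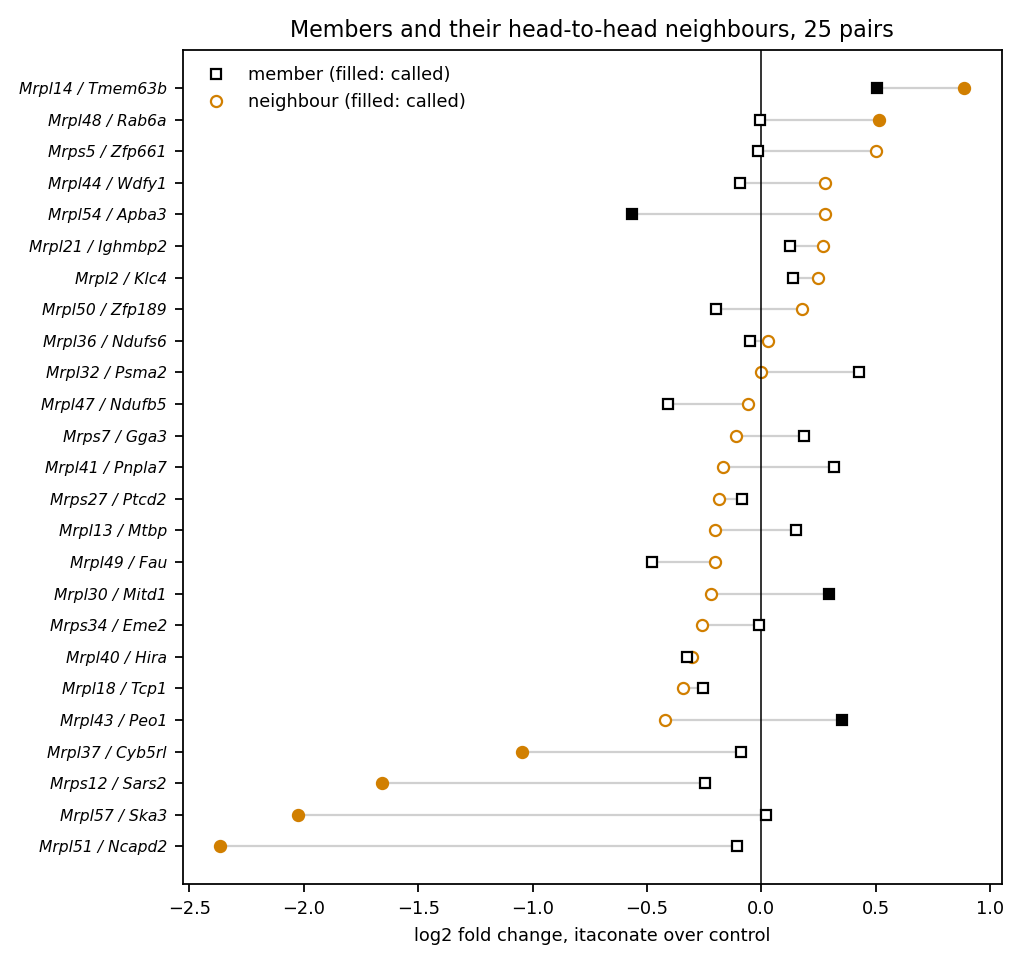
Log2 fold change of itaconate over control for the 25 pairs of a member (black square) and its opposite-strand neighbour (orange circle) with starts within 1000 bases, filled where the gene was called. The members lie between -0.57 and 0.51, while neighbours reach -2.37 for Ncapd2, and both symbols are filled only for Mrpl14 and Tmem63b.

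A further 6 mitoribosomal proteins are listed under other symbols. They comprise the small-subunit proteins Dap3, a GTP-binding protein, Chchd1, Aurkaip1 and Ptcd3, and the large-subunit proteins Gadd45gip1 and Ict1, a peptidyl-tRNA hydrolase. Of these 6, 0 were called by edgeR (0 at an unadjusted p under 0.05), by DESeq2 (0) or by limma-voom (0). Their log2 fold changes were 0.07 for Dap3, 0.10 for Chchd1, 0.03 for Aurkaip1, -0.12 for Ptcd3, -0.36 for Gadd45gip1 and -0.18 for Ict1, with SE between 0.10 and 0.21. Scaling by library totals put Aurkaip1 at -0.02. Their summed level was 472.8 to 526.2 CPM in itaconate and 497.8 to 505.5 CPM in control libraries.

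Among 27 tested genes of mitoribosome assembly and ribosomal RNA modification, 2 were higher and 1 lower (11.1% called, against 21.9% of all tested genes). Afg3l2 encodes a subunit of the inner-membrane protease that cleaves the Mrpl32 protein. It had 93.4, 113.4 and 94.8 CPM in itaconate libraries and 43.4, 42.1 and 37.9 CPM in control libraries. The lowest itaconate value was far above the highest control value, with a log2 fold change of 1.29 ± 0.14 (SE, edgeR adjusted p = 8.64e-11). Nsun4, a methyltransferase of the small-subunit ribosomal RNA that also takes part in joining the subunits, had 11.3, 11.8 and 15.6 CPM in itaconate libraries and 25.4, 22.6 and 22.0 CPM in control libraries. It was lower in every itaconate library (-0.86 ± 0.24, adjusted p = 0.00686).

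Ngrn, which is needed for stable large-subunit ribosomal RNA, rose by 0.43 ± 0.16 (adjusted p = 0.0405), with no overlap of the groups. The adjusted p of Ngrn lay between 0.0599 and 0.151 when control replicate 1 or 2 or any 1 of the 3 itaconate replicates was left out, and was 0.0801 with scaling by library totals and 0.0644 with no filter. Among 18 tested factors of mitochondrial translation, 1 was higher and 1 lower (11.1% called, against 21.9% of all tested genes). They were Slirp and Lrpprc, whose proteins form 1 complex that stabilises mitochondrial mRNAs. Slirp had 155.9, 101.1 and 107.2 CPM in itaconate libraries and 86.4, 78.0 and 76.3 CPM in control libraries, without overlap (0.60 ± 0.13, adjusted p = 0.000403). Itaconate replicate 1 was the highest, and without it the log2 fold change of Slirp was 0.38 (adjusted p = 0.0378).

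Lrpprc had 137.3, 123.9 and 111.7 CPM in itaconate libraries and 156.9, 183.9 and 125.0 CPM in control libraries, with overlap (-0.32 ± 0.11, adjusted p = 0.0363). The call of Lrpprc was lost without control replicate 1 (adjusted p = 0.0947), control replicate 2 (log2 fold change -0.18, 0.376), itaconate replicate 2 (0.0927) or itaconate replicate 3 (0.146), and by DESeq2 (0.0797). Of 23 tested genes of mitochondrial DNA transcription, replication and RNA processing, 2 were higher and 0 lower (8.70% called, against 21.9% of all tested genes). Fastkd3, which encodes a mitochondrial RNA-binding protein, rose by 0.86 ± 0.21 (adjusted p = 0.00121), and Hsd17b10, a subunit of mitochondrial RNase P, rose by 0.43 ± 0.10 (adjusted p = 0.00128).

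Of 8 tested regulators of nuclear genes for mitochondria, 0 were higher and 3 lower (37.5% called, against 21.9% of all tested genes). Gabpb2, a subunit of the ETS factor GABP, had 28.25, 29.52 and 27.45 CPM in itaconate libraries and 47.04, 53.11 and 60.27 CPM in control libraries. The groups were well apart (-0.91 ± 0.17, edgeR adjusted p = 3.30e-05). The DNA-binding GABP subunit gene Gabpa was also lower in every itaconate library but not called (-0.56 ± 0.23, adjusted p = 0.0756, and 0.0486 with scaling by library totals), and Gabpb1 was at -0.12 ± 0.29 (adjusted p = 0.829).

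Nrf1 had 14.3, 11.8 and 15.9 CPM in itaconate libraries and 16.9, 26.3 and 28.9 CPM in control libraries. The groups did not overlap (-0.78 ± 0.24, adjusted p = 0.0162). Leaving out control replicate 2 gave an adjusted p of 0.0796, control replicate 3 one of 0.119 and itaconate replicate 2 one of 0.0899. The coactivator gene Ppargc1b had 41.8, 50.3 and 35.7 CPM in itaconate libraries and 68.0, 60.9 and 60.6 CPM in control libraries, again without overlap (-0.57 ± 0.15, adjusted p = 0.00415).

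The remaining tested regulators were not called. The related coactivator gene Pprc1 was at -0.17 ± 0.21 (adjusted p = 0.626), the nuclear receptor gene Esrra at 0.42 ± 0.26 (0.258) and Yy1 at 0.06 ± 0.12 (0.769). Of the 68 members with a promoter window, 25 held the ETS core and 8 the NRF1 core. Among called members the ETS core was present in Mrpl43 and Mrpl53, which were higher, and in Mrps23, which was lower. No called member's window held the NRF1 core, and the promoter of Mrpl54 was not used here.

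Of the proteins made by the mitoribosome, 7 of the 13 mitochondrially encoded transcripts passed the filter, and 1 was called (14.3%, against 21.9% of all tested genes). ND3, ND4L, COX2, COX3, ATP6 and ATP8 failed the filter, with at most 5 counts in any library, while ND4 had at least 85861. Whether those transcripts were scarce or were not counted was not tested. ND4, a complex I subunit, rose by 0.28 ± 0.08 (edgeR adjusted p = 0.0135), with overlapping groups. Its adjusted p was 0.0979 without control replicate 3, 0.104 without itaconate replicate 1, 0.0504 without itaconate replicate 3, 0.0966 with scaling by library totals and 0.2504 by limma-voom.

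**Figure D5:**
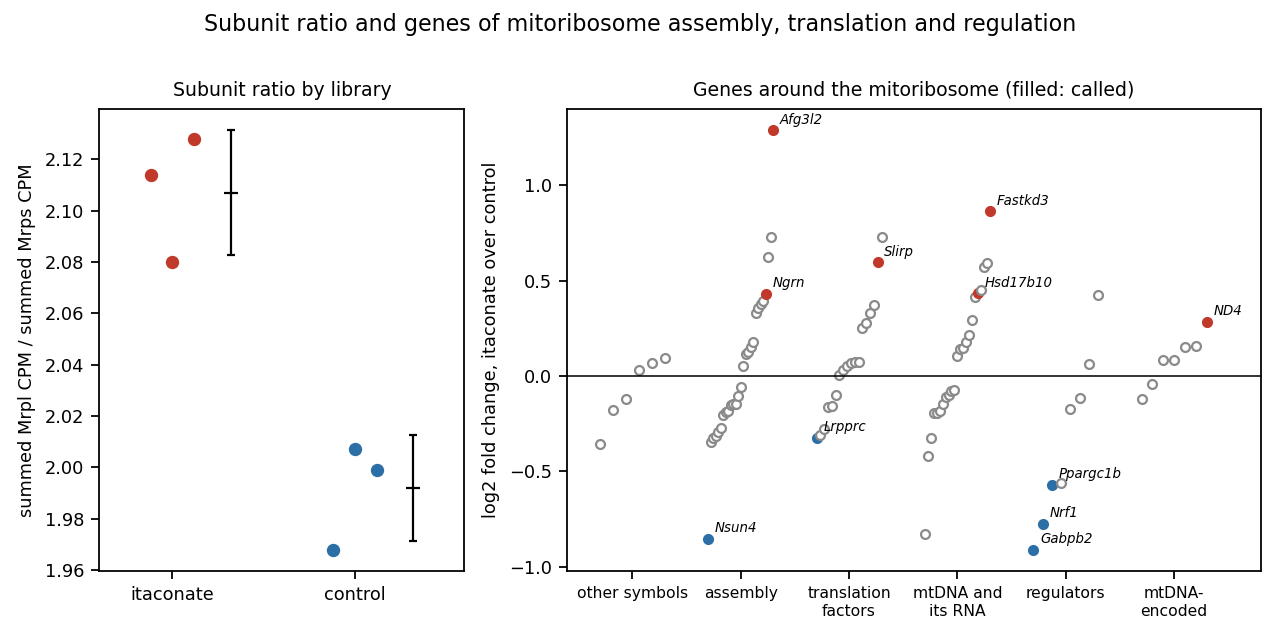
Left, the ratio of summed Mrpl to summed Mrps CPM in each library (itaconate 2.08 to 2.13, control 1.97 to 2.01), with the mean and SD of 3 libraries in black and an axis that does not start at 0. Right, log2 fold change of itaconate over control for each tested gene of 6 lists around the mitoribosome, where filled symbols are called genes (red higher, blue lower), from Afg3l2 at 1.29 to Gabpb2 at -0.91.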

How the data were processed

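The authors deposited raw, whole-number counts for each gene symbol, obtained from Lexogen QuantSeq FWD libraries of TRIzol-extracted RNA, per the labels' protocols. Per the submitters' processing notes, the tools were STAR 2.7.5a, HTSeq 0.6.1 and edgeR, with the build mm10. The strand setting and the annotation are not known here. The kit reads transcript ends, so levels are not per length. All 6 count columns were used.

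Genes were filtered with filterByExpr (minimum count 10, minimum total 15), which left 10636 of the 17720 symbols with a count, and scaled by TMM. The test was the quasi-likelihood F test of edgeR 4.0.16 (R 4.3.3), group as the only term, two-sided, Benjamini-Hochberg adjusted over all genes tested. Alternatives used DESeq2 1.42.0, limma 3.58.1 (voom), other scalings and filters, a replicate block and each library left out. The scripts were tested on simulated data. Intervals are 95%. Floors of 3 counts cover counting error only, since several reads can come from 1 molecule.

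Replicates differed beyond sampling noise (chi-square per gene 4.78 to 7.67). Coordinates are from GENCODE M21 and promoters from RefSeq, both on GRCm38, which mm10 names. Stretches of 50 bases from the last 400 bases of each 3′ end were searched in other transcripts. The members and lists were chosen with earlier results of these data known. Named were all called members, the 4 most abundant of each subunit, the 6 largest uncalled changes at 5 CPM or more, untested members, up to 4 called genes per list, all tested regulators and the neighbours of called members.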

Additional observations from a re-analysis of the deposited data

How the results depend on the processing

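The count of members called higher (4) was 4 with DESeq2 size factors in edgeR, DESeq2, limma-voom, no filter and a mean of at least 5 CPM, 3 without Mrpl53 (an alternative chosen after seeing the data) and 2 with scaling by library totals. Leaving out 1 library gave 2 to 4 (2 when control replicate 2 or 3 or itaconate replicate 3 was dropped). The count called lower (3) was 5 with library totals, 1 with DESeq2 and 2 with limma-voom or no filter. Leaving out 1 library gave 0 to 3, with 0 without control replicate 1 and 1 once itaconate replicate 3 was dropped. Over the same settings 12.1% to 24.7% of all genes were called. The Mrpl median log2 fold change (0.006) was -0.0463 with library totals, where the median of all genes was also lower, at -0.0587, and 0.017 to 0.0598 with 1 library left out, highest without control replicate 1. The Mrps median (-0.0155) moved under every alternative by less than the SD of the 3 itaconate libraries' medians, each taken against the control mean. Spread between control libraries does not enter that SD. The replicate block gave 4 higher, 3 lower and medians of 0.0192 and -0.0145. Same-numbered libraries did not deviate together (correlations -0.013, 0.017 and 0.038), so the numbers were not taken as pairs. Of 661 values of single genes under an alternative, 592 kept direction and side of the threshold, 49 lost the call, 8 gained one and 12 changed sign. Those that changed sign were uncalled genes. With 1 library left out, Mrpl12 lay between -0.146 and 0.0598 (above 0 without control replicate 1, and at 0.0408 without itaconate replicate 1), Mrps6 between -0.0606 and 0.0365, Aurkaip1 between -0.0958 and 0.110, Ptcd3 between -0.217 and 0.0183, Gabpb1 between -0.224 and 0.0032, Yy1 between -0.0767 and 0.151, Mitd1 between -0.363 and 0.0324, and Apba3 between -0.177 and 0.580. With library totals Aurkaip1 was at -0.02. The cause of these shifts was not tested. At 3 libraries a group, the interval of 42 of 74 members lay within 0.5 on the log2 scale, and for the others a difference beyond 0.5 is inside the interval.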
